A study of Mus musculus with 10 samples.

Results

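The genes Trp63, Tfap2a, Tfap2c, Gata3, Grhl1, Grhl3, Ovol1, Zfp750, Cebpa and Elf5 encode transcription factors that set and carry out the epidermal fate. All 10 were found by symbol among the 27040 genes listed in every library of a single-cell RNA sequencing series of mouse embryonic back skin, and all 10 had at least 1 unique molecular identifier (UMI, 1 captured RNA molecule) in the cells described here. Back skin from 10 embryos was profiled as 10 libraries. The youngest embryos, of E15.5, were 2 controls (replicates 2 and 3) and 2 MOF cKO (replicates 5 and 6). Those of E16.5 were again 2 controls and 2 MOF cKO (replicates 1 and 2 of each), and the oldest pair, of E17.5, was a single control with a single QPC cKO embryo. MOF cKO embryos carried MOF fl/fl alleles with Krt14-Cre, and the QPC cKO embryo carried QPC fl/fl alleles with the same driver. MOF, encoded by Kat8, is a histone acetyltransferase, and QPC, encoded by Uqcrq, is a subunit of respiratory complex III. Krt14-Cre acts in keratinocytes, so the dermis of a cKO embryo keeps its intact gene. The controls were wild-type or heterozygous littermates on a mixed C57Bl/6J and CD-1 background, which the cKO embryos share. The study describes E15.5 MOF cKO replicate 6 as a mosaic embryo, and the main results that rest on it are also given without it.

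Epidermis renews from a basal layer, whose cells carry keratins 5 and 14 and sit on the basement membrane. Cells that leave this layer switch to keratins 1 and 10, become spinous and then granular cells, and build the water barrier. p63, the product of Trp63, is the factor without which stratified epithelium does not form, and the AP-2 factors Tfap2a and Tfap2c and the zinc finger factor Gata3 act beside it in epidermal commitment. The grainyhead-like factors Grhl1 and Grhl3, the zinc finger factors Ovol1 and Zfp750 and the C/EBP factor Cebpa act as cells stop dividing and differentiate. Elf5 is an ETS factor known from differentiating keratinocytes and from the mammary gland.

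Cells were taken from the libraries by their keratin UMIs. A kept cell had over 1000 and under 6000 genes and under 10% mitochondrial UMIs. A basal cell had at least 10 UMIs of Krt5 and Krt14 together and under 10 of Krt1 and Krt10 together, and a suprabasal cell had at least 20 UMIs of Krt1 and Krt10 together. This left 12019 basal and 1290 suprabasal cells among 55482 kept cells. The E16.5 MOF cKO libraries held 21 and 22 basal cells and 9 and 13 suprabasal cells, against 239 and 464 basal and 31 and 66 suprabasal cells in their controls. At E15.5 the suprabasal cells numbered 147 and 361 in controls and 188 and 213 in MOF cKO, and at E17.5 there were 190 in the control and 72 in QPC cKO. Levels below are CPM, the UMIs of a gene divided by the UMIs of all genes in the gated cells of 1 library and multiplied by 1000000. Such a level is a share of all RNA in a gate, in which fewer cells that make a factor and less RNA of it per cell cannot be told apart. Intervals of levels cover counting error only. By the labels each stage had its own version of the chemistry, and the E16.5 libraries listed 27998 genes against 32285 at E15.5 and E17.5, so a difference in level between stages cannot be told apart from a difference in chemistry.

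The gates were checked with markers that they did not use. The basal markers Itga6, Itgb4, Col17a1, Krt15 and Mki67 summed to between 532 and 4297 CPM in basal cells, lowest in the E16.5 MOF cKO libraries at 532 and 963 against 2875 and 4297 in their controls. The sum does not speak for each marker. Itgb4 went the other way at E16.5, with a log2 change of 1.45 in MOF cKO by DESeq2, an alternative fit. The hair germ and follicle genes Sox9, Lhx2, Shh, Krt17 and Pthlh were read in the basal gate too. They summed to 3788 and 2395 in E16.5 MOF cKO against 1062 and 1197 in controls. This sum does not speak for each gene either. Lhx2 and Shh were at 0 in both E16.5 MOF cKO libraries and were read in both controls, which held far more cells. At E17.5 the sum was 2508 in QPC cKO and 1171 in the control, and at E15.5 the groups overlapped. The part of this sum in the levels of the factors was not tested. Fibroblast genes were also read in the basal gate. The share of basal cells with at least as many UMIs of Col1a1, Col1a2 and Col3a1 as of the 4 keratins was 48.7% in the E17.5 control and 10.4% in QPC cKO, 33.1% and 3.88% in the E16.5 controls, 0% in both E16.5 MOF cKO libraries, and between 3.12% and 11.1% at E15.5. Values for basal cells are therefore also given, for some of the factors, for cells with more keratin than collagen UMIs, of which there were 10059. Granular cells were unevenly held by the suprabasal gate. Lor, Flg, Ivl, Tgm1 and Tgm3 summed to 39804 and 25322 CPM in the E16.5 controls, 924 and 476 in E16.5 MOF cKO, 677 to 2665 at E15.5, and 49.2 and 64.2 at E17.5. No doublet caller was run. Any 2 libraries shared between 0 and 36 cell barcodes.

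The targeted genes were looked at first. Kat8 was read in basal cells at 16.4 and 14.9 CPM in the E16.5 controls and 8.31 and 4.51 in MOF cKO, and at 13.0 and 13.7 in the E15.5 controls against 13.4 and 10.3 in MOF cKO. The E16.5 values rest on 55 and 101 UMIs in controls and on 3 and 2 in MOF cKO. The groups did not overlap at E16.5 at these counts, and overlapped at E15.5. Uqcrq was read at 103 in the E17.5 control and 45.7 in QPC cKO in basal cells, and at 144 and 27.8 in suprabasal cells. Which exons the floxed alleles remove is not given in the sources used here, and reads taken at the transcript end do not show a deletion elsewhere in the gene.

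Promoter sequences help to place 4 of the genes the results turn on, and those of Grhl1, Grhl3, Elf5 and Cebpa are shown because these genes were far higher in suprabasal than in basal cells. The sequences are those of RefSeq on GRCm38.p6, from 250 bases before to 50 after the start site, written 5′ to 3′ on the strand of the gene. Capitals mark matches to 5 short motifs, searched on both strands: GCCNNNGGC of AP-2 factors, TTGCNNAA of C/EBP factors, AGATAA of GATA factors, the GC box GGGCGG and the TATA box TATAAA. The grainyhead motif AACCGGTT was searched too. Matches of different motifs were allowed to overlap. The window of the upstream of 2 Grhl1 start sites is chr12:24572037-24572336 on the plus strand, and that of Grhl3 is chr4:135573583-135573882 on the minus strand. That of the upstream of 2 Elf5 start sites is chr2:103411848-103412147 on the plus strand, and that of Cebpa is chr7:35119043-35119342 on the plus strand.
Grhl1: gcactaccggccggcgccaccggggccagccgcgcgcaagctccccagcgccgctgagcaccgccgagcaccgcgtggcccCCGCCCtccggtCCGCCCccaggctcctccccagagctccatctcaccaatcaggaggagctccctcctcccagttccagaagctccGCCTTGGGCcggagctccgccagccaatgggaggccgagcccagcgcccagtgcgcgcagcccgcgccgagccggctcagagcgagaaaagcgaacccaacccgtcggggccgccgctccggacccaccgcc
Grhl3: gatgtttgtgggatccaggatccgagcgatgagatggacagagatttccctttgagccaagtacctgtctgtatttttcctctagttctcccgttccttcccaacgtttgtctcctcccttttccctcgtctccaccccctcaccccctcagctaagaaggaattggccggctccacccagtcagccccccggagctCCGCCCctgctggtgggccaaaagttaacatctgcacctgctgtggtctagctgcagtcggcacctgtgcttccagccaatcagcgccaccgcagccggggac
Elf5: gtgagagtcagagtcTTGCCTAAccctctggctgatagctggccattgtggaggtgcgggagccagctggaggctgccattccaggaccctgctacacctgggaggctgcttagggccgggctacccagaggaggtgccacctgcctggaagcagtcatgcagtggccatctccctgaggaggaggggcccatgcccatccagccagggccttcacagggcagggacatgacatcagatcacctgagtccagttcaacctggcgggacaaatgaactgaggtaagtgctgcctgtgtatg
Cebpa: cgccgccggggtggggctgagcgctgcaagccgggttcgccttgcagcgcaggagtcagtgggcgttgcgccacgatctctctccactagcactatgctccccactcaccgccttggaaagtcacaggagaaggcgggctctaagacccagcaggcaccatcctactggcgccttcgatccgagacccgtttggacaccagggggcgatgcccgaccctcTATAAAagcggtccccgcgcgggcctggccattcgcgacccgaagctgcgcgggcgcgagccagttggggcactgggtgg
Taking the start site as 0, the AP-2 motif in Grhl1 began at -82, with GC boxes at -169 and -157, the GC box in Grhl3 at -53, the C/EBP motif in Elf5 at -235, and the TATA box in Cebpa at -30. Among all 32851 promoters of the table, the AP-2 motif was in 16.6%, the C/EBP motif in 10.8%, the GATA motif in 11.2%, the GC box in 35.7% and the TATA box in 13.6%. The grainyhead motif was in 0.146% of them and in 0 of the 9 promoters found for 6 of the 10 genes. A match describes letters and is not a binding site. Promoters of Trp63, Ovol1, Tfap2c and Zfp750 were not used here. The shown windows of Grhl1, Cebpa, Elf5 and Grhl3 held 75.3%, 67.3%, 60.7% and 58.3% G and C, against a median of 52.7% over all promoters. The downstream windows of Grhl1 and Elf5, which are not shown, held 51.3% and 55.3%, and that of Grhl1 had no match to any of the motifs.

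The genes themselves lie apart in the genome. On GRCm38 (GENCODE vM21), Trp63 spans chr16:25683763-25892102 and Ovol1 chr19:5549136-5560646. Grhl1 spans chr12:24572283-24617391, Grhl3 chr4:135541888-135573630, Cebpa chr7:35119293-35121928 and Zfp750 chr11:121510978-121519333. On chromosome 2 lie Gata3 (chr2:9857078-9890034), Elf5 (chr2:103411688-103450989) and Tfap2c (chr2:172549593-172558622), and Tfap2a spans chr13:40715302-40738376. All are annotated as protein coding, and a UMI was assigned to a gene without a record of the exon it came from.

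**Figure D1:**
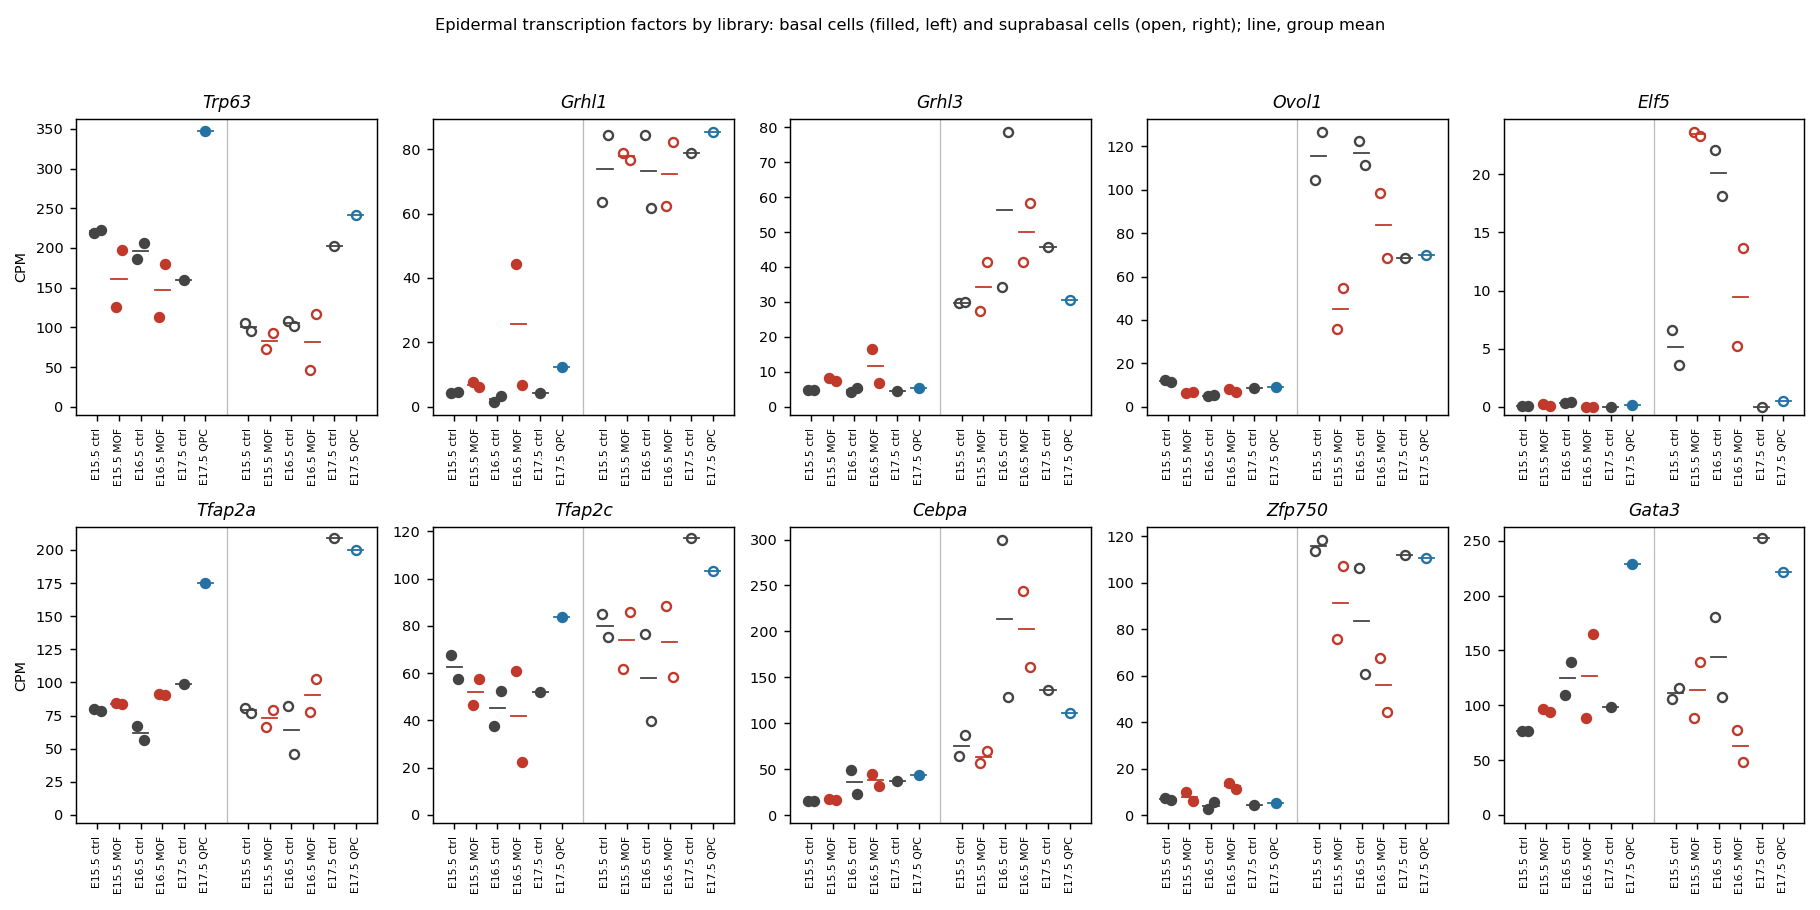
Each panel plots 1 gene, with CPM on the linear y axis. Filled points on the left are basal cells and open points on the right suprabasal cells of each library, coloured by group (grey control, red MOF cKO, blue QPC cKO), and lines are group means. Grhl1, Ovol1 and Zfp750 sit near the bottom in basal cells and far higher in suprabasal cells, while Trp63 and Tfap2a are read in both. The exception is the basal Grhl1 point of E16.5 MOF cKO replicate 1, at 44.3 CPM.

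In control skin, 6 of the 10 factors were several times higher in suprabasal than in basal cells, and a further factor, Gata3, was higher by a small margin. The 5 control libraries each gave a basal and a suprabasal sum, and the step between them was tested within libraries by edgeR's quasi-likelihood test with Benjamini-Hochberg adjustment over 12753 genes, of which 29.5% passed an adjusted p of 0.05 and 14.9% were higher. A further 14.6% were lower. Of the 10 factors, 7 passed and all 7 were higher in suprabasal cells, at an unadjusted p under 0.05 there were 9, beside 42.9% of genes, and DESeq2 called 9, beside 33.8%. The median log2 change over the 10 was 2.82, and that over all genes was -0.07.

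Grhl1, known as an activator of desmosomal cadherins, was read at 63.5 and 84.5 CPM in suprabasal cells of the E15.5 controls, 84.4 and 61.7 at E16.5 and 78.8 at E17.5, against 4.20 and 4.48, 1.49 and 3.24, and 4.29 in basal cells. Each suprabasal value was above each basal value, and the suprabasal level was 15.1 to 56.7 times the basal level of the same library, or 10.2 to 34.9 times among cells with more keratin than collagen. The log2 change was 4.43 ± 0.24 (SE), with an adjusted p of 3.6e-05 (edgeR), higher in 5 of 5 libraries. Grhl3, known for its role in barrier formation, stood in suprabasal cells at 29.7 and 29.9 CPM at E15.5, 34.2 and 78.7 at E16.5 and 45.7 at E17.5, against 4.17 to 5.31 in the basal cells of the 5 libraries. Its log2 change was 3.20 ± 0.24 (adjusted p = 0.000136, edgeR). The suprabasal levels of Grhl3 lay far apart in the E16.5 controls and close together in the E15.5 controls.

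Ovol1, a repressor known to restrain the growth of differentiating keratinocytes, was read in suprabasal cells at 104 and 127 CPM at E15.5, 123 and 111 at E16.5 and 68.4 at E17.5. In basal cells it was read at 12.3 and 11.2, 4.77 and 5.31, and 8.85. No basal value came near a suprabasal one, and this also held among cells with more keratin than collagen, where the E17.5 basal level was 16.9. The log2 change was 3.71 ± 0.28 (adjusted p = 0.000148, edgeR). Zfp750, a factor of terminal differentiation that acts downstream of p63, was read in suprabasal cells at 114 and 118 CPM at E15.5, 107 and 60.5 at E16.5 and 112 at E17.5, against 2.38 to 7.15 in basal cells. Its log2 change was 4.41 ± 0.27 (adjusted p = 5.2e-05, edgeR), close to that of Grhl1.

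Cebpa, known with its relative Cebpb for the exit from the cell cycle, was read in both layers. Its suprabasal levels were 63.8 and 87.1 CPM at E15.5, 299.5 and 128 at E16.5 and 137 at E17.5. Its basal levels were 15.4 and 14.8, 49.5 and 23.0, and 36.7. The ratio of suprabasal to basal ran from 3.73 to 6.06 in the 5 libraries, and the log2 change was 2.45 ± 0.15 (adjusted p = 5.0e-05, edgeR). The basal level of Cebpa was close to that of the dermis. Fibroblast-like cells of the same 5 libraries held 10.7 and 12.0 CPM at E15.5, 47.8 and 23.3 at E16.5 and 35.1 at E17.5.

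Elf5 was read in few cells. In the suprabasal cells of controls it had 20 and 30 UMIs at E15.5, 11 and 15 at E16.5 and 0 at E17.5, which is 6.61, 3.63, 22.1, 18.2 and 0 CPM. At E17.5 the count was 0 of 4984575 UMIs, for which the exact 95% interval reaches 0.74 CPM. Basal cells of the 5 controls held 10 Elf5 UMIs in all. The fitted log2 change of 5.79 ± 0.67 (adjusted p = 0.000888, edgeR) rests on E15.5 and E16.5, as the E17.5 control held 0 Elf5 UMIs in suprabasal and 1 in basal cells.

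Trp63, Tfap2a, Tfap2c and Gata3 were read in both layers at levels nearer to each other. Trp63 was read in basal cells at 219 and 223 CPM at E15.5, 186 and 207 at E16.5 and 159 at E17.5. In suprabasal cells it was read at 106 and 96.1, 109 and 102, and 203. It was lower in suprabasal cells in 4 of 5 controls, and the E17.5 control went the other way with a ratio of 1.27. The log2 change of -0.61 ± 0.24 did not pass (adjusted p = 0.0902, edgeR). Among cells with more keratin than collagen the basal level at E17.5 was 307, the ratio there was 0.662, and Trp63 fell by 0.97 ± 0.12 on the log2 scale in 5 of 5 controls (adjusted p = 0.000439, edgeR), where 38% of genes passed. It also passed without the E17.5 control, beside 31.6% of genes. Gata3, known in skin for barrier lipids and the hair follicle, was read at 76.6 and 76.4, 109 and 139.6, and 98.7 in basal cells and at 106 and 116, 181 and 108, and 252 in suprabasal cells. Its log2 change of 0.71 ± 0.22 just passed (adjusted p = 0.0478, edgeR), and among cells with more keratin than collagen it was 0.34 ± 0.13 and did not (adjusted p = 0.0733, edgeR). Tfap2a gave 0.37 ± 0.21 (adjusted p = 0.207, edgeR) and Tfap2c 0.65 ± 0.22 (adjusted p = 0.0629, edgeR). Basal levels were 56.8 to 99.0 for Tfap2a and 37.8 to 67.7 for Tfap2c over the 5 controls, and suprabasal levels were 46.0 to 209 and 39.9 to 117.

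**Figure D2:**
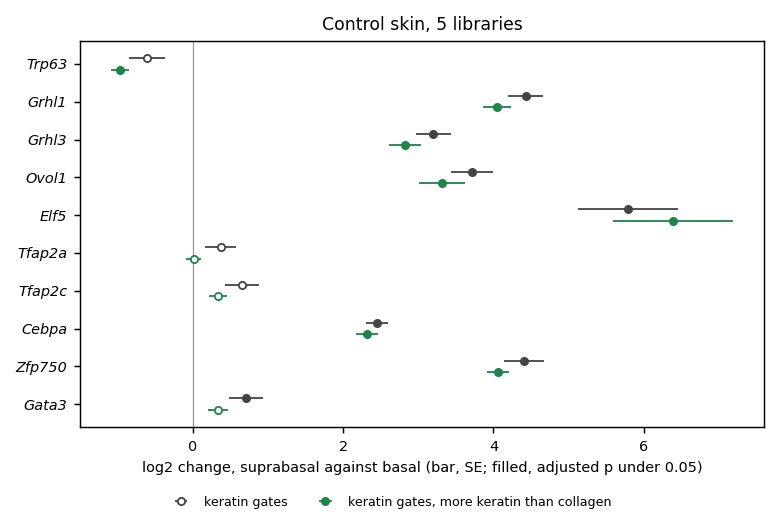
The x axis gives the log2 change of each factor from basal to suprabasal cells over the 5 control libraries, with bars of 1 SE, for the keratin gates (grey) and for gated cells with more keratin than collagen UMIs (green), and filled points passed an adjusted p of 0.05. Grhl1 at 4.43, Zfp750 at 4.41 and Ovol1 at 3.71 stand far to the right of Tfap2a at 0.37, and Trp63 lies left of 0.

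Other genes of the epidermal programme gave the step its setting. Of 26 other epidermal transcription factors, 25 were tested, 13 were higher in suprabasal cells and 2 lower, beside 14.9% and 14.6% of all genes, with Dlx5, a homeobox factor, at a log2 change of 3.84, Hopx at 3.68, Foxn1 at 3.68 and Ehf at 3.37. Their median was 0.87, beside -0.07 over all genes. Of 20 genes of basal adhesion and signalling that p63 is known to bind or need, 9 were lower and 5 higher, with a median of -0.72. The integrin subunit Itga3 fell by 2.58 on the log2 scale and the Notch ligand Jag2 by 2.27, while the desmosomal genes Perp and Pkp1 rose by 2.18 and 1.94. Of 22 granular and barrier genes, 21 were tested and 20 were higher, with a median of 6.47. Hrnr, Cdsn, Flg and Ivl, which encode parts of the cornified layer, gave log2 changes of 8.12, 7.82, 7.68 and 7.43.

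Within the suprabasal gate the factors were not evenly held. Cells with at least 10 UMIs of Lor, the granular protein loricrin, numbered 109 of 1290, and 261 of the 293 Elf5 UMIs (89.1%) were in these 8.45% of cells. Most of these UMIs were those of E15.5 MOF cKO, 96 of 104 and 99 of 107, and in controls it was 19 of 20 and 21 of 30 at E15.5 and all 11 and 15 at E16.5. Lor was not used by the gates. In these cells Elf5 was read at 161 and 50.3 CPM in the E15.5 controls and 82.6 and 67.6 in the E16.5 controls, against 0.344, 1.15, 0 and 0 in the other suprabasal cells of the same libraries. Trp63 was read at 93.5 and 40.7 in the Lor cells of the E15.5 controls and 22.5 and 36.0 at E16.5, against 106 and 99.0, and 140.0 and 126, in the others. Trp63 was lower in Lor cells in 4 of these 4 libraries. Tfap2a went the same way, at 8.50 and 24.0, and 22.5 and 27.0, against 83.9 and 79.6, and 104 and 53.0. Grhl1 was read at 102 and 151, and 60.1 and 113, against 61.9 and 80.9, and 93.3 and 43.0, which is higher in 3 of 4 libraries. These strata hold 8 to 20 cells each in the 4 controls, and no test was run on them.

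Not every cell of a layer had a UMI of its factors. After thinning each cell to 5000 UMIs, the median share of cells with at least 1 Trp63 UMI over the 10 libraries was 60.2% in basal and 33.5% in suprabasal cells, against 1.36% in fibroblast-like cells. For Ovol1 these shares were 3.86%, 34.7% and 0.303%, for Grhl1 2.66%, 29.0% and 0.124%, and for Zfp750 2.29%, 33.0% and 0.194%. Without thinning the Ovol1 shares were 9.50%, 65.6% and 0.468%. The source of the UMIs in fibroblast-like cells was not tested. The median basal shares of Grhl1, Ovol1 and Zfp750 were above the fibroblast-like ones, at median depths of 12536.5 to 25183 UMIs per basal cell and 9145 to 19900 UMIs per fibroblast-like cell. Fibroblast-like cells were taken outside both keratin gates. A dermal cell that met the basal gate was not among them, so their shares cannot serve as the background of that gate. For Cebpa, which fibroblasts use, the shares were 13.2%, 41.4% and 12.7%.

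Loss of MOF was then compared with control at each stage and in each layer. With 2 libraries a group, p-values measure the spread between those libraries. No factor passed an adjusted p of 0.05 in any of the 4 comparisons by edgeR's quasi-likelihood test, where 0% of 14364 genes passed in E15.5 basal, 0% of 10819 in E15.5 suprabasal, 0.243% of 9454 in E16.5 basal and 4.03% of 4266 in E16.5 suprabasal cells. Of the factors tested, 4 of 9, 2 of 10, 4 of 9 and 1 of 9 had an unadjusted p under 0.05, beside 9.11%, 7.73%, 20.3% and 25.9% of all genes. Elf5 was too low to be tested in basal cells and in E16.5 suprabasal cells. DESeq2 called 0, 2, 1 and 0 factors, and 0.828%, 0.453%, 3.16% and 5.32% of all genes. These factors were Ovol1, lower, and Elf5, higher, in E15.5 suprabasal cells, and Grhl1, higher, in E16.5 basal cells.

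Ovol1 in suprabasal cells was read at 104 and 127 CPM in the E15.5 controls, from 316 and 1046 UMIs, and at 35.6 and 54.6 in MOF cKO 5 and 6, from 157 and 251 UMIs. The MOF cKO values were both under the control values, and the mosaic embryo was the nearer to control. The log2 change was -1.29 ± 0.20, a fitted level of 0.41 times control (adjusted p = 0.372, edgeR), lower in 2 of 2 libraries. DESeq2 gave -1.28 and an adjusted p of 0.00829, and edgeR without MOF cKO 6 gave -1.45 ± 0.19 and an adjusted p of 0.00267. In basal cells the levels were 12.3 and 11.2 in controls and 6.37 and 6.77 in MOF cKO, a log2 change of -0.69 ± 0.20 (adjusted p = 0.508, edgeR). Ovol1 was thus under control in both layers at this stage. Granular and other suprabasal cells were then read apart. Suprabasal cells with under 10 Lor UMIs held 105 and 124 in controls and 32.9 and 49.1 in MOF cKO, while cells with at least 10 held 93.5 and 168 against 51.3 and 122, which overlapped.

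Elf5 in suprabasal cells was read at 6.61 and 3.63 CPM in the E15.5 controls and 23.6 and 23.3 in MOF cKO, from 20 and 30 UMIs against 104 and 107. The values did not overlap. The log2 change was 2.39 ± 0.36, a fitted level of 5.23 times control (adjusted p = 0.372, edgeR). DESeq2 gave 2.38 and an adjusted p of 0.00101, and edgeR without MOF cKO 6 gave 2.59 ± 0.33 and 0.00225. Ovol1 and Elf5 were the 2 factors called here without MOF cKO 6, where 1762 of 11374 genes were, without MOF cKO 5, where 0.337% were, and with no filter on low counts, where 2.91% were. The UMIs came from few cells, namely 6 and 13 cells in controls and 20 and 19 in MOF cKO, with 26 and 39 UMIs in the cell that held the most in each MOF cKO library. Among cells with at least 10 Lor UMIs, Elf5 stood at 161 and 50.3 in controls and 145 and 288 in MOF cKO, which overlapped. Among the other suprabasal cells it stood at 0.344 and 1.15 in controls and 2.14 and 1.88 in MOF cKO. Cells with at least 10 Lor UMIs made up 7.48% and 5.54% of suprabasal cells in controls and 13.8% and 11.3% in MOF cKO, so their share moved with the level of Elf5. The part of that share in the higher Elf5 level was not tested. Among cells with more keratin than collagen the values were 6.30 and 3.68 against 21.1 and 14.9.

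The other factors in E15.5 suprabasal cells lay closer to control. Zfp750 was read at 114 and 118 in controls and 75.6 and 107 in MOF cKO, which did not overlap, with a log2 change of -0.26 ± 0.16. Trp63 was read at 106 and 96.1 against 73.3 and 93.3, also without overlap, at -0.19 ± 0.15. Grhl1 (0.17 ± 0.22), Grhl3 (0.28 ± 0.20), Gata3 (0.11 ± 0.18), Cebpa (-0.17 ± 0.21), Tfap2a (-0.02 ± 0.15) and Tfap2c (-0.03 ± 0.16) overlapped with control. Without MOF cKO 6 these 8 changes lay between -0.36 and 0.33, and none passed. Of the 10 factors 4 did not overlap, beside 38.3% of all genes with at least 50 UMIs. With more keratin than collagen it was 3 of 10, beside 37.2%, and Trp63 then overlapped.

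**Figure D3:**
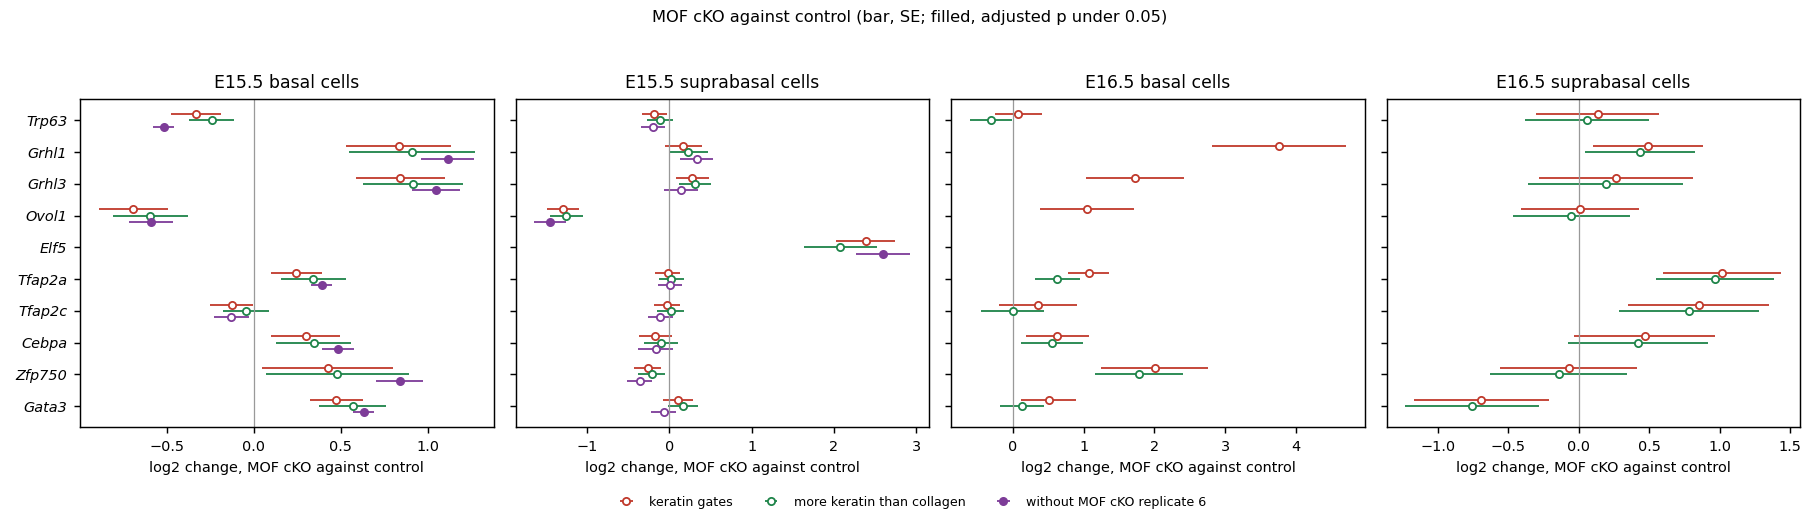
The 4 panels give log2 changes in MOF cKO against control on the x axis, with bars of 1 SE, for both layers and both stages, each panel with its own range. Red points use the keratin gates, green points gated cells with more keratin than collagen, and purple points leave out E15.5 MOF cKO replicate 6, and filled points passed an adjusted p of 0.05. All filled points are purple. Ovol1 lies at -1.29 and Elf5 at 2.39 in E15.5 suprabasal cells.

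In E15.5 basal cells the factors parted in direction. Trp63 was read at 219 and 223 CPM in controls and 126 and 197 in MOF cKO 5 and 6, a log2 change of -0.33 ± 0.14. Gata3 was read at 76.6 and 76.4 against 96.4 and 93.9 (0.47 ± 0.15), and Grhl1 at 4.20 and 4.48 against 7.66 and 6.1 (0.83 ± 0.30). Grhl3 was read at 4.94 and 4.86 against 8.25 and 7.47 (0.84 ± 0.25). None of these passed, with adjusted p of 0.508 for each in edgeR. Without MOF cKO 5 the changes were smaller, at -0.17 for Trp63, 0.29 for Gata3, 0.49 for Grhl1 and 0.61 for Grhl3. That of Ovol1 was then larger, at -0.80. In the same gate the basal markers summed to 3909 and 3749 in controls and 1211 and 2883 in MOF cKO, and the fibroblast list to 1059 and 1088 against 1853 and 1606. The part of these in the levels was not tested. The other factors gave 0.24 ± 0.15 for Tfap2a, 0.30 ± 0.20 for Cebpa, 0.42 ± 0.38 for Zfp750 and -0.13 ± 0.12 for Tfap2c. Of 9 factors with at least 50 UMIs, 8 did not overlap between the groups, 5 of them higher and 3 lower in MOF cKO, beside 50.8% of all such genes. In cells with more keratin than collagen it was 7 of 9, beside 50.4%, and Tfap2c, at 69.0 and 59.3 in controls against 49.8 and 59.5, then overlapped. In these cells Trp63 was read at 225 and 229 in controls and 137 and 205 in MOF cKO, with a log2 change of -0.24 ± 0.13, and Ovol1 at 12.6 and 11.5 against 6.81 and 7.18 (-0.59 ± 0.21). Gata3 stood at 0.57 ± 0.19, Grhl1 at 0.91 ± 0.36 and Grhl3 at 0.91 ± 0.29 on the same scale, and none passed. The fibroblast list there summed to 423 and 305 in controls and 267 and 450.1 in MOF cKO, which overlapped, and the basal markers to 3995 and 3851 against 1284 and 2987.

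Without MOF cKO 6, edgeR called 8 of the 9 factors in E15.5 basal cells, where it called 49.4% of 15213 genes. The comparison then sets 1 library against 2 and takes its spread to be that of the controls. Trp63 stood at -0.52 ± 0.06 (adjusted p = 0.00105, edgeR), Ovol1 at -0.59 ± 0.13, Grhl1 at 1.11 ± 0.15, Grhl3 at 1.05 ± 0.14, Zfp750 at 0.84 ± 0.13, Gata3 at 0.63 ± 0.06, Cebpa at 0.48 ± 0.09 and Tfap2a at 0.39 ± 0.06. Tfap2c at -0.13 ± 0.10 did not pass. With MOF cKO 5 left out in its place, Gata3 and Ovol1 passed, where 4.97% of genes did.

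At E16.5 the gates held few MOF cKO cells, so each level rests on few UMIs. Grhl1 in basal cells was read at 1.49 and 3.24 CPM in controls and 44.3 and 6.77 in MOF cKO. The counts were 5 and 22 UMIs in controls and 16 and 3 in MOF cKO, where 6 of 21 and 3 of 22 cells held them. Both MOF cKO values were above control, and replicate 1 was far above replicate 2. The log2 change was 3.77 ± 0.95 (adjusted p = 0.147, edgeR), and DESeq2 gave 3.91 and an adjusted p of 0.00819. With edgeR it was 1.84 without MOF cKO 1 and 4.67 without control 2, and neither passed. Grhl1 also passed with no filter on low counts, where 5.95% of genes did, and with gates on keratin shares of a cell, where 9.01% did. Zfp750 was read at 2.38 and 5.75 against 13.9 and 11.3, from 5 UMIs in each MOF cKO library, with a log2 change of 2.0 ± 0.76 (adjusted p = 0.217, edgeR). Grhl3 gave 1.73 ± 0.70 and Ovol1 1.05 ± 0.67, each from 3 to 6 UMIs a MOF cKO library. The change of Grhl3 was 0.91 without MOF cKO 1 and 2.29 without MOF cKO 2. Spinous genes were read in the same gate. The spinous markers Krtdap, Sbsn, Dsg1a, Dsc1 and Calm4 summed to 4171 and 1319 in the basal gate of MOF cKO against 643 and 1999 in controls, which overlapped. Of these, Sbsn was higher with DESeq2, at a log2 change of 3.18 (adjusted p = 0.0147). The granular genes Ivl, Tgm1 and Tgm3 were higher there too, at 6.19, 5.86 and 6.35, and Lor was lower, at -3.03. The hair germ and follicle list summed to 3788 and 2395 in MOF cKO against 1062 and 1197 in controls, which did not overlap. Its members did not all go this way, as Lhx2 and Shh were at 0 in both MOF cKO libraries and were read in both controls, which held far more cells. MOF cKO 1, with the high Grhl1, also had the highest sum of the spinous and of the hair germ and follicle list. The part of this in the Grhl1 level was not tested.

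Among the factors read well in basal cells at E16.5, Trp63 stood at 186 and 207 CPM in controls and 114 and 180.4 in MOF cKO. Among cells with more keratin than collagen the controls stood at 303 and 218, and the MOF cKO levels were the same, so that the mean was 0.564 times control. Tfap2a was read at 67.0 and 56.8 against 91.5 and 90.2, a log2 change of 1.07 ± 0.29 (adjusted p = 0.162, edgeR), and at 0.63 ± 0.32 among cells with more keratin than collagen. Gata3 at 109 and 139.6 against 88.7 and 165, Cebpa at 49.5 and 23.0 against 44.3 and 31.6, and Tfap2c at 37.8 and 52.3 against 61.0 and 22.6 overlapped. Their means were 1.02, 1.05 and 0.926 times control in the same order. Among cells with more keratin than collagen they were 0.771, 0.993 and 0.717 times control, again with overlap. Trimmed-mean scaling matters here. The fitted change of Trp63 was 0.07 ± 0.34 though both MOF cKO levels were under both controls, and with library size alone it was -0.42, while the median change of all genes was -0.11 and -0.64 under these scalings. Tfap2c turned in the same way, from 0.35 to -0.14. Of 8 factors with at least 50 UMIs, 5 did not overlap (62.5%), beside 62.9% of all genes. Among cells with more keratin than collagen it was 3 of 8, beside 63.9%, and Tfap2a, at 111 and 59.7 in controls against 91.5 and 90.2, and Grhl3 then overlapped.

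In E16.5 suprabasal cells, 9 and 13 cells of MOF cKO gave between 8 and 47 UMIs a library for each factor other than Elf5. Gata3 was read at 181 and 108 CPM in controls and 77.9 and 48.0 in MOF cKO (log2 change -0.69 ± 0.48), and Ovol1 at 123 and 111 against 98.6 and 68.5 (0.01 ± 0.42). Both were lower without overlap as levels, and with library size alone the changes were -1.27 and -0.55. That scaling also turned the fitted sign of Trp63 (0.13 to -0.37), Grhl1 (0.49 to -0.04), Grhl3 (0.26 to -0.23) and Cebpa (0.47 to -0.14), while the median of all genes moved from -0.05 to -0.58. Tfap2a was read at 82.4 and 46.0 against 77.9 and 103 (1.02 ± 0.42, adjusted p = 0.186, edgeR). Elf5 had 11 and 15 UMIs in controls and 1 and 4 in MOF cKO, and all of the control UMIs were in the 8 and 18 cells with at least 10 Lor UMIs, of which MOF cKO had 1 and 0. The 1 and 4 UMIs of MOF cKO were in other suprabasal cells, where the controls had 0. Grhl1 at 84.4 and 61.7 against 62.3 and 82.2, Zfp750 at 107 and 60.5 against 67.5 and 44.5, and Cebpa at 299.5 and 128 against 244 and 161 overlapped. Of 9 factors with at least 50 UMIs, 2 did not overlap, beside 66.3% of all genes, and among cells with more keratin than collagen it was also 2 of 9, beside 65.4%.

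Other measures separated these cells from their controls. The median mitochondrial share of a suprabasal cell was 0.0811% and 0.0693% in E16.5 MOF cKO against 3.44% and 2.02% in controls. Krt14 was read in suprabasal cells at 30400 and 20165 CPM in MOF cKO against 6804 and 6883 in controls, and Krt17, which marks the hair germ and is also made by keratinocytes under stress, at 7320 and 4776 against 1463 and 1122. The list of hair germ and follicle genes that held it, with Sox9, Lhx2, Shh and Pthlh, summed to 7325 and 4841 against 1506 and 1148, nearly all of it Krt17. Sox9 had 1 and 15 UMIs in MOF cKO, from 9 and 13 cells, and 2 and 16 in controls, from 31 and 66 cells. These are counts and not levels, as the gates differ in size. Lhx2, Shh and Pthlh were at 0 in MOF cKO 1 and Shh in MOF cKO 2, while Lhx2 was at 0 in both controls and Shh in control 1. The part of these measures in the levels of the factors was not tested.

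The 3 lists of other epidermal genes were read in the same way. At E15.5 edgeR called 0 of the 26, 20 and 15 genes tested in basal cells and 0 of the 24, 20 and 18 tested in suprabasal cells, and the medians of the lists were between -0.08 and 0.65. Klf4, a barrier factor, stood at -0.54 ± 0.14 in basal and -0.58 ± 0.20 in suprabasal cells, with adjusted p of 0.508 and 0.631 (edgeR). Its sign was the other way in E16.5 basal cells, at 0.81 ± 0.30 (adjusted p = 0.212, edgeR). The MOF effect on Klf4 differed between E16.5 and E15.5 by 1.29 ± 0.32 in basal and 1.41 ± 0.45 in suprabasal cells, and neither passed. At E16.5 Ivl, the cornified envelope protein involucrin, rose in basal cells by 6.12 ± 0.46 on the log2 scale (adjusted p = 0.0466, edgeR), from 1.19 and 1.77 CPM in controls to 88.7 and 69.9. In suprabasal cells Elf3, an ETS factor related to Elf5, rose by 3.69 ± 0.71 and the envelope crosslinking enzyme Tgm1 by 2.26 ± 0.45, while Lor, Hrnr and Cdsn fell by 7.81, 7.36 and 3.69 on the log2 scale. Hrnr passed on leaving out any library, at -12.37 without MOF cKO 2 and -6.63 without MOF cKO 1. Lor, Cdsn and the Ivl change in basal cells did not pass without MOF cKO 1 or without MOF cKO 2. Elf3 did not pass without control 1, control 2 or MOF cKO 2 and was not tested without MOF cKO 1, and Tgm1 did not pass with share gates, without control 2 or without MOF cKO 1. With the replicate block Elf3 and Tgm1 had adjusted p of 0.0913 and 0.0862 (edgeR). These were 1 of 15 other factors and 4 of 18 granular and barrier genes tested there, beside 4.03% of all genes, and Ivl was 1 of 11 in basal cells, beside 0.243%. Of basal adhesion and signalling 0 of 20 genes passed in basal and 0 of 11 in suprabasal cells at E16.5 with edgeR and the keratin gates. The list medians, in the order other factors, adhesion and barrier, were 0.32, 0.74 and 1.43 in basal cells, beside -0.11 over all genes. In suprabasal cells they were -0.27, 0.90 and -0.05, beside -0.05. In basal cells Jag1 and Lama3 rose with DESeq2 and, by edgeR, among cells with more keratin than collagen, and Itgb4 with DESeq2 alone, which makes 3 and 2 of 20 beside 3.16% and 3.77% of all genes. Under the same settings 5 of 11 and 5 of 10 granular and barrier genes passed, in which Ivl, Tgm1, Tgm3 and Sbsn were higher and Lor was lower each time. Of the other factors 1 passed in each, Ehf, higher, with DESeq2 and Barx2, lower, among cells with more keratin than collagen. These genes were named after their values were seen.

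**Figure D4:**
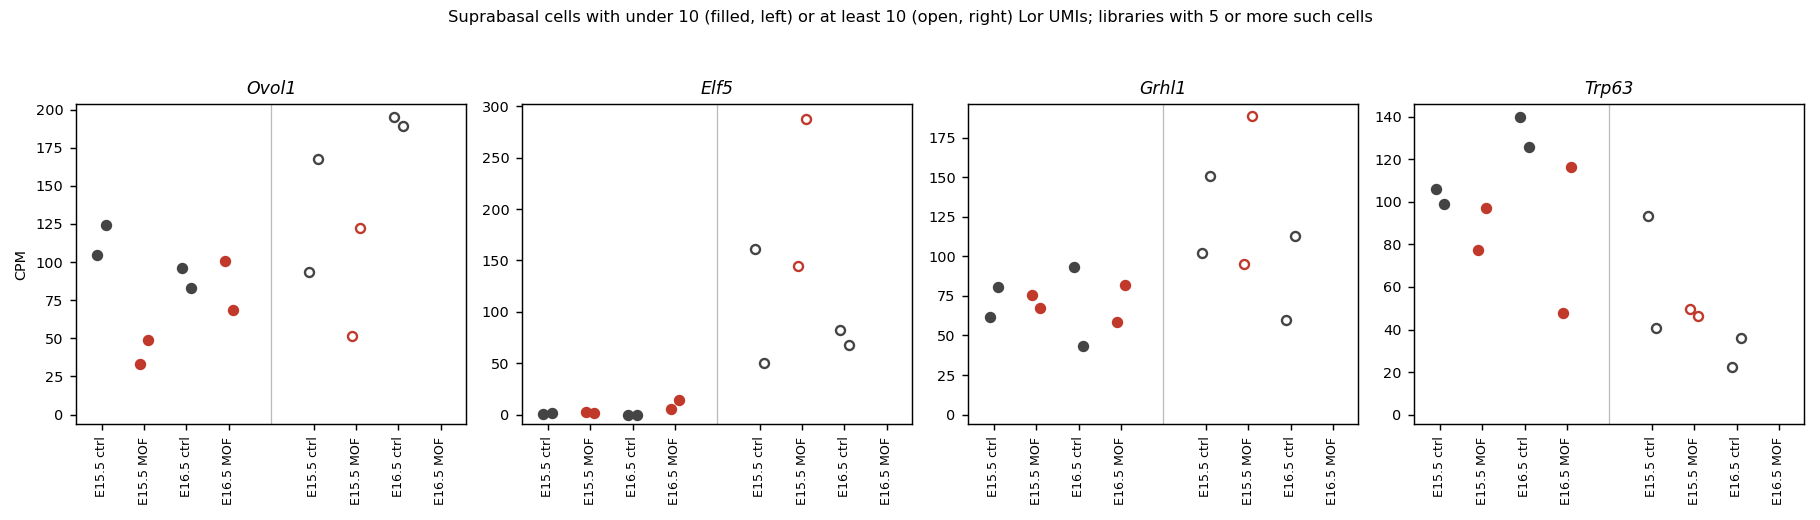
CPM (linear y axis) of Ovol1, Elf5, Grhl1 and Trp63 in suprabasal cells with under 10 Lor UMIs (filled, left) and at least 10 (open, right), 1 point a library with 5 or more such cells, grey for control and red for MOF cKO. E16.5 MOF cKO had 1 and 0 cells with at least 10 Lor UMIs and shows no open point. Ovol1 in E15.5 MOF cKO lies at 32.9 and 49.1 in the left columns, under controls at 105 and 124, and Elf5 lies near 0 on the left in each E15.5 library.

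The size of the MOF effect was compared between stages and between layers. Between E16.5 and E15.5, none of the factors passed, where 0.0152% of 13189 genes did in basal and 0.0401% of 9968 in suprabasal cells (edgeR), and DESeq2 called 0 factors and 1.56% and 1.26% of genes. At an unadjusted p under 0.05 there were 3 of 9 and 3 of 10 factors, beside 11.5% and 12.7% of genes. Those of suprabasal cells were -2.90 ± 0.73 for Elf5, 1.24 ± 0.43 for Ovol1 and 1.03 ± 0.41 for Tfap2a, with adjusted p of 0.242, 0.327 and 0.359 (edgeR). Those of basal cells were 2.86 ± 1.01 for Grhl1, 1.67 ± 0.63 for Ovol1 and 0.76 ± 0.30 for Tfap2a, with adjusted p of 0.371, 0.388 and 0.399 (edgeR). That of Grhl1 was 1.06 without E16.5 MOF cKO 1 and 3.97 without E16.5 control 2. Without E15.5 MOF cKO 6 the 6 differences were -3.02, 1.47, 1.06, 2.55, 1.54 and 0.59 in the same order, and none passed. With no filter on low counts 1 factor passed in each layer, Grhl1 in basal and Elf5 in suprabasal cells, beside 2.12% and 1.88% of genes. The median of all genes was -0.28 in basal and -0.29 in suprabasal cells. In 1 fit over both stages, the step from basal to suprabasal was compared between MOF cKO and control, where 0.0245% of 12233 genes passed and none of the 10 factors did. Their changes were -1.14 ± 0.42 for Grhl1, -0.86 ± 0.38 for Zfp750, -0.72 ± 0.32 for Grhl3, -0.71 ± 0.31 for Gata3 and -0.67 ± 0.26 for Ovol1, with adjusted p of 0.609 to 0.721 (edgeR) and unadjusted p under 0.05 for these 5, beside 6.74% of genes. DESeq2 called 0 factors and 0.0817% of genes. Without MOF cKO 6 they were -1.38, -1.42, -1.08, -1.02 and -0.94 in the same order, and none passed. With no filter Grhl1 passed, beside 0.82% of genes, and among cells with more keratin than collagen without MOF cKO 6 Zfp750 did, beside 2.27%. On leaving out 1 library the smallest changes were -0.68 for Grhl1 without E16.5 MOF cKO 1 and -0.40 for Gata3 without E16.5 MOF cKO 2. Without E15.5 MOF cKO 5 they were -0.43 for Zfp750, -0.46 for Grhl3 and -0.48 for Ovol1. In the main fit the median of the 10 was -0.54 and that of all genes -0.02. Of the lists, Lor passed between stages in suprabasal cells (-8.51 ± 1.07), and Ivl between layers (-5.28 ± 0.83). Lor lost its call with share gates, with more keratin than collagen, and without E16.5 MOF cKO 1 or 2, E15.5 control 3 or E15.5 MOF cKO 5 or 6, with adjusted p of 0.0555 to 0.365 (edgeR). Ivl lost its call with DESeq2 (adjusted p = 0.247) and without E16.5 control 2, where it stood at -3.54, or E16.5 MOF cKO 1 or 2, with adjusted p of 0.151 to 0.447 (edgeR). The ratio of suprabasal to basal level for Grhl1 was 15.1 and 18.8 in E15.5 controls and 10.3 and 12.6 in MOF cKO, and for Grhl3 it was 6.03 and 6.15 against 3.33 and 5.53. At E16.5 the ratios were 56.7 and 19.0 against 1.40 and 12.2 for Grhl1, and 8.19 and 14.8 against 2.50 and 8.61 for Grhl3. Within a stage, the Grhl1 ratios did not overlap between the groups at E15.5 or E16.5, and those of Grhl3 overlapped at E16.5 only. The share of all genes with ratios that do not overlap was not taken.

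Loss of QPC was measured at E17.5 in 1 library a group, so that no test was possible, and intervals cover counting error in those libraries. A gene counted as past the threshold if the ratio of its levels, with 1 CPM added to each, was at least 1.5 in either direction and it had at least 50 UMIs. In basal cells 5 of the 9 factors with enough UMIs passed, all higher in QPC cKO, where 24.4% of 14372 genes passed, 5.8% being higher and 18.6% lower. Trp63 was read at 348 CPM in QPC cKO and 159 in the control, a ratio of 2.18 (2.12 to 2.25). Gata3 was read at 229 and 98.7, a ratio of 2.32 (2.24 to 2.40), and Tfap2a at 175 and 99.0, a ratio of 1.76 (1.70 to 1.83). Tfap2c was read at 83.8 and 52.2, a ratio of 1.60 (1.52 to 1.69), and Grhl1 at 12.2 and 4.29, a ratio of 2.85 (2.42 to 3.36). The share of basal cells with as much collagen as keratin moved with them, 48.7% in the control against 10.4%, and Col1a1 stood at 9017 in the control and 1411 in QPC cKO.

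Among cells with more keratin than collagen, 2 of the 9 factors were past the threshold, where 11.4% of 13091 genes were, 2.96% higher and 8.47% lower. Grhl1 was read at 13.5 in QPC cKO and 7.78 in the control, a ratio of 1.73 (1.47 to 2.05), and Ovol1 at 9.70 and 16.9, a ratio of 0.575 (0.491 to 0.671). Trp63 was read at 382 and 307, a ratio of 1.24 (1.21 to 1.28), and Gata3 at 252 and 190.3, a ratio of 1.33 (1.28 to 1.37). Tfap2a at 191 and 187 had a ratio of 1.02 (0.983 to 1.06), and Tfap2c at 87.8 and 89.2 one of 0.984 (0.930 to 1.04). Both AP-2 ratios were near 1 in these cells. Grhl3 at 5.91 and 8.55 and Zfp750 at 5.91 and 8.23 had ratios of 0.691 and 0.719.

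In suprabasal cells 0 of 9 factors passed the threshold, where 11.3% of 8754 genes did, 3.61% higher and 7.68% lower. Among those with more keratin than collagen it was also 0 of 9, beside 11.4% of genes, 3.73% higher and 7.68% lower. Grhl3 lay farthest from control, at 30.6 in QPC cKO and 45.7 in the control, a ratio of 0.67 (0.50 to 0.888). Trp63 was read at 242 and 203, a ratio of 1.19 (1.07 to 1.33), Cebpa at 112 and 137, a ratio of 0.817 (0.701 to 0.949), and Gata3 at 221 and 252, a ratio of 0.877 (0.786 to 0.976). The intervals of Grhl1, Ovol1, Tfap2a, Tfap2c and Zfp750 held 1. Elf5 had 1 UMI in QPC cKO and 0 in the control, where 0 and 1 suprabasal cells had at least 10 Lor UMIs.

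**Figure D5:**
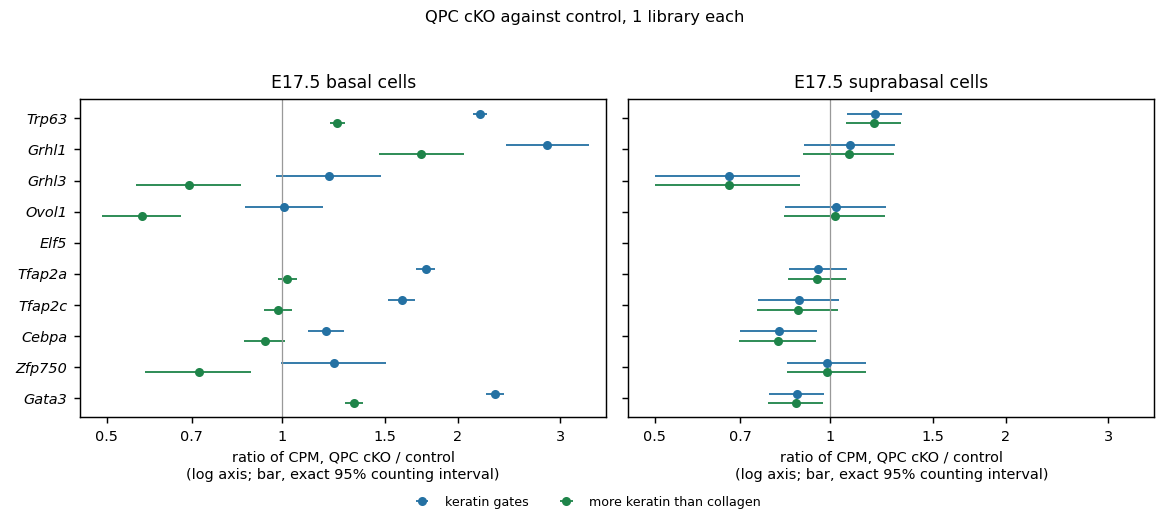
The log x axis gives the ratio of CPM in QPC cKO to control at E17.5, 1 library each, with exact 95% counting intervals, in basal (left) and suprabasal cells (right), for the keratin gates (blue) and for cells with more keratin than collagen (green). In basal cells the blue points of Trp63, Gata3, Tfap2a, Tfap2c and Grhl1 lie right of 1.5, and the green points of Tfap2a and Tfap2c lie at 1.02 and 0.984.

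The genes whose pattern was most like that of 4 factors were named by Pearson's r of log2 levels over 20 sums, the 2 layers of 10 libraries, with the mean of each stage removed, among 5426 genes. The points share libraries and depth, and r is a description. For Trp63 these were 2900026A02Rik (r = 0.937), the Wnt receptor Fzd10 (0.935) and the growth factor Bmp7 (0.928). For Grhl1 they were Nectin4 (0.976), Fam25c (0.975) and Sult2b1 (0.975). Genes near to Ovol1 were Them5 (0.961) and Acsl1 (0.960), and Elf5 was nearest to the keratin Krt77 (0.939), Calml3 (0.928) and Orm1 (0.921).

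The factors were also read outside the keratin gates, in other skin cells that were named from marker lists. Tfap2a, which the neural crest lineage also uses, was read at 93.6 to 257 CPM in the 830 melanocyte-like cells and 21.5 to 83.7 in the 665 Schwann-like cells over the 10 libraries. Cebpa was read at 10.7 to 57.4 in the 32112 fibroblast-like and 7.57 to 56.2 in the 3305 immune-like cells. Tfap2c in fibroblast-like cells was read at 20.2 in the E17.5 control and 44.1 in QPC cKO, and at 1.19 to 9.94 in the other 8 libraries. Gata3 was read at 1.05 to 11.5 in immune-like and 0.312 to 6.55 in fibroblast-like cells. Trp63 was read in fibroblast-like cells at 0.567 to 9.61, and Grhl1, Grhl3, Ovol1 and Zfp750 at most at 1.24. The lowest basal level of these factors was 1.49, that of Grhl1 in E16.5 control 1, from few UMIs. Fibroblast-like cells were taken outside the gates, so their levels cannot serve as the background of the basal gate.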

How the data were processed

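Single-cell RNA of 10 embryonic back skins was counted by the authors, who deposited counts, the UMIs per gene and cell in each library, with no normalization. The submitters' processing notes name Cell Ranger 1.3.1 and 6.1.2 and mm10. The libraries held 1288 to 14611 barcodes and 13609345 to 203392303 UMIs, and 716 to 10653 cells were kept in each. Counts were summed per library and layer and tested with edgeR 4.0.16 (R 4.3.3) by its quasi-likelihood test after filterByExpr and TMM scaling, with Benjamini-Hochberg adjustment over all genes and a threshold of 0.05, and DESeq2 1.42.0 was an alternative. The control step had the library as a block. Each stage was fitted on its own, and the comparisons of stages and of layers over both stages. The scripts were tested on simulated data. Other alternatives were library size alone, no filter, gates on keratin shares (at least 10 and 20 UMIs per 10000), more keratin than collagen, 5% mitochondrial UMIs, the replicate block, and leaving out each library. Samples are separate embryos in pairs with littermate controls, and which replicate numbers form a pair is not stated, so p-values measure the spread between embryos. The members, gene lists and tests were chosen with earlier results of these data known. The text names all members, up to 4 genes of each list per comparison with the largest change past the threshold, otherwise up to the 2 most abundant, and 3 genes of like pattern for 4 members, except results not reported here. Other cell classes needed at least 3 markers of a single list, and fibroblast-like cells 4.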

Additional observations from a re-analysis of the deposited data

How the results depend on the processing

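The number of factors called was 0 in each MOF comparison with edgeR, and the alternatives moved it as follows. In E15.5 basal cells it ran from 0 to 8 on leaving out 1 library, 8 without MOF cKO 6 and 2 without MOF cKO 5, and was 8 among cells with more keratin than collagen without MOF cKO 6, a setting chosen after seeing the data in which 49.1% of genes were called. In E15.5 suprabasal cells it was 2 with DESeq2, 2 with no filter, 0 to 2 on leaving out 1 library and 2 in the added setting, beside 13% of genes. In E16.5 basal cells it was 1 with DESeq2, 1 with no filter, Grhl1 each time, and 3 with gates on keratin shares, where Grhl3 and Zfp750 joined it. With no filter it was 1 for the stage difference in basal cells (Grhl1), 1 in suprabasal cells (Elf5) and 1 for the layer difference (Grhl1), which was also 1 in the added setting (Zfp750, -1.39, adjusted p = 0.0166, edgeR). The causes were not tested.

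In controls 7 factors were called, 9 with DESeq2, and 6 to 8 on leaving out 1 library. Gata3 lost its call with library size alone, share gates, more keratin than collagen, 5% mitochondrial UMIs, and without E15.5 control 2 or 3, E16.5 control 1 or the E17.5 control. Trp63 was called, lower, with DESeq2, library size alone, share gates, more keratin than collagen and without the E17.5 control. At E17.5 the 5 basal factors past the threshold became 2 with more keratin than collagen and 2 with share gates, beside 1058 of 12687 genes, and the 0 suprabasal ones became 1, Grhl3, with 5% mitochondrial UMIs, beside 1175 of 7323 genes. Among cells with more keratin than collagen, E17.5 basal ratios of factors that were not past the threshold moved across 1 for Ovol1 (1.01 to 0.575), Grhl3 (1.20 to 0.691), Zfp750 (1.23 to 0.719) and Cebpa (1.19 to 0.934). Signs also turned for Tfap2a in the basal stage difference (-0.049 in the added setting), and in E17.5 basal cells for Tfap2a (0.966 with share gates) and Tfap2c (0.984 with more keratin than collagen and 0.924 with share gates).

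Over all genes, the 0 calls in E15.5 basal cells became 119 with DESeq2, 2 with no filter, 7518 without MOF cKO 6 and 747 without MOF cKO 5, and the 0 in suprabasal cells 49, 525, 1762 and 38. The 23 calls in E16.5 basal cells became 299 with DESeq2, 991 with no filter, 765 with share gates, 310 with more keratin than collagen and 0 to 434 on leaving out 1 library, and the 172 in suprabasal cells became 636 with no filter, 110 with share gates and 30 (without MOF cKO 1) to 247 (without control 2) on leaving out 1 library. The 2 and 4 calls for the stage difference became 206 and 126 with DESeq2, 415 and 319 with no filter, 47 and 0 with share gates, 4 and 0 with more keratin than collagen, and 0 to 42 (without E16.5 control 2) and 0 to 7 (without E15.5 MOF cKO 5) on leaving out 1 library. The 3 calls for the layer difference became 10 with DESeq2, 163 with no filter and 0 to 85 on leaving out 1 library, 85 without MOF cKO 6. E16.5 control and MOF cKO libraries share the replicate numbers 1 and 2. The study worked with pairs of embryos without saying which numbers form a pair, and the deviations of libraries with a number in common correlated at -0.0808 in basal cells. With the replicate block 52 genes were called in basal and 88 in suprabasal cells, and 0 factors in each. Simulated data took the depths and the spreads of the real fits, with MOF cKO 6 included. There edgeR recovered 2.01% of 2-fold changes in E15.5 basal, 5.15% in E15.5 suprabasal and 0% in E16.5 cells. It recovered 35.6% for the step in controls and 31.7% for the layer difference. False calls numbered 2, 4, 0, 8 and 26 in the same order, beside 4, 10, 0, 69 and 63 true ones. For the stage differences edgeR recovered 0% in basal and 0% in suprabasal cells, with 0 and 1 false calls.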

Other observations

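Cells that passed none of the class rules numbered 2071, and the factors were read in them as well. Over the 10 libraries the median level in these cells was 66.2 CPM for Tfap2a, 24.5 for Trp63, 23.0 for Tfap2c, 18.6 for Gata3, 12.8 for Cebpa and 10.9 for Zfp750. Ovol1 stood at 9.66, Grhl1 at 4.91, Grhl3 at 4.12 and Elf5 at 0.372.

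Suprabasal cells that still carried basal keratins were also read apart. In E15.5 suprabasal cells with at least 10 UMIs of Krt5 and Krt14 together, Ovol1 was read at 96.0 and 115 CPM in controls and 33.5 and 48.5 in MOF cKO. In those with fewer, it was read at 217 and 165 in controls and 44.1 and 94.5 in MOF cKO. The groups did not overlap in either stratum, and no test was run on them. The share of all genes that did not overlap was not taken in the strata, and was 38.3% in the whole gate. Over the series the stratum with fewer basal keratin UMIs held 255 cells, 1 to 92 in each library that had any.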
